A study of Mus musculus with 6 samples.

Results

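The Ccdc genes are mouse genes named only for a predicted coiled-coil domain, a rod of alpha helices wound around each other. The 127 members examined here are the protein-coding rows of the expression table whose symbol is Ccdc followed by a number, out of 29333 genes of all types and 17807 protein-coding genes. Ccdc39, Ccdc40 and Ccdc65, which build the axonemal ruler and the nexin-dynein regulatory complex, were left out. By known function 20 members were placed as flagellar (axoneme, manchette or sperm tail), 32 as ubiquitous, 16 as centrosomal, 7 as other spermatogenic genes and 6 as secreted or somatic, and 46 had no placement. Testes of Hsf5-/- mice at postnatal day 16 were compared with control testes of the same age, which the labels call wild type and the design text calls WT or Hsf5+/-. The labels list 3 samples per group. The expression table used holds values only for controls 1 and 2 and knockouts 1 and 3, the 2 per group analysed here. No strain is named, and nothing says that the samples came from different animals, so each p-value describes the spread among these libraries, which may be technical. Hsf5 encodes a member of the heat shock factor family of DNA-binding proteins, known from the male germ line.

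A shared name does not give these genes a shared job. Some Ccdc proteins sit in the axoneme, the bundle of microtubules inside cilia and sperm tails, or in the manchette, a transient microtubule skirt that shapes the spermatid head and feeds the growing tail. Others serve splicing, the endoplasmic reticulum, endosomes or mitochondria in nearly every cell. Many tail genes of the testis are first transcribed in pachytene spermatocytes, before any tail is built, so their transcripts can be read while the leading germ cells are still in meiosis.

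The 4 libraries held between 16209093 and 18557898 reads. Hsf5 itself had normalised read counts (reads divided by the library's size factor) of 2541 and 3147 in the controls and 1926 and 1602 in the knockouts, which left 62.03% of the control mean. Of 14 tested pachytene markers 12 fell, and their summed level was 74190 and 105771 in the controls against 35305 and 27703 in the knockouts. Sertoli cell markers rose in 4 of 15, with sums of 119561 and 111820 against 140445 and 133604. Spermatogonial markers rose in 4 of 10 and fell in 1. By the same calls 13.5% of all tested genes fell and 3.28% rose. Of 5 tested spermatid markers 1 fell, Acr, which encodes the acrosomal protease acrosin, at 359 and 681 against 112 and 77.9 (-2.39, limma adjusted p = 0.00130). Spaca1 was not called at 128 and 129 against 143 and 94.2, and Prm1, Prm2, Tnp2 and Catsper3 stayed at or below 8.73 in every library. None of 6 Leydig cell markers was called, and their sums of 3123 and 6067 against 4347 and 2968 differed within both groups. Of 6 tested markers of multiciliated and efferent duct cells 1 fell, the centriole amplification gene Deup1, at 67.9 and 155 against 43.1 and 26.6 (-1.57, limma adjusted p = 0.0392). Runs of 4 values give controls 1 and 2 and then knockouts 1 and 3. Foxj1 at 68.8, 66.4, 70.2 and 77.9, Ccno at 47.5, 51.6, 66.1 and 81.95 and Pax2 at 53.3, 16.9, 66.1 and 57.4 lay higher in both knockouts without a call. In Esr1 at 243, 213, 152 and 262 and Pax8 at 27.1, 4.96, 18.04 and 25.6 the groups overlapped, also without a call. Mcidas, Gmnc, Lcn8 and Crisp1 stayed at or below 11.02. In whole tissue, fewer cells of a type and less RNA per cell cannot be told apart, and the part of these marker differences in the Ccdc results was not tested.

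To show what sequence lies in front of these genes, promoter windows were taken from RefSeq (GRCm38.p6, an older build than the mm39 named in the submitters' processing notes), matched by symbol for 102 of the 127 members. The 250 bases before the annotated start, read on the gene's strand, are printed for 4 flagellar members that fell and for Ccdc115, a ubiquitous member that was not called. Capitals mark GTTNCC, the core of sites bound by RFX factors, and GAANNTTC, a pair of inverted heat shock factor units, on either strand. Each printed window holds a match and does not stand for its group. The windows of Ccdc38, Ccdc87 and Ccdc173, flagellar members that also fell, hold neither motif.
Ccdc42 (chr11:68586787-68587036, plus strand): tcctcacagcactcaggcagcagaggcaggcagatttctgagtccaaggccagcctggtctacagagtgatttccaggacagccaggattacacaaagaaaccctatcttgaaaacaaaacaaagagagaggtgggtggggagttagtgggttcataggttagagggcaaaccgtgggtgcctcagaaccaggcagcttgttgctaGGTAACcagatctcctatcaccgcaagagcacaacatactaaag
Ccdc113 (chr8:95533850-95534099, plus strand): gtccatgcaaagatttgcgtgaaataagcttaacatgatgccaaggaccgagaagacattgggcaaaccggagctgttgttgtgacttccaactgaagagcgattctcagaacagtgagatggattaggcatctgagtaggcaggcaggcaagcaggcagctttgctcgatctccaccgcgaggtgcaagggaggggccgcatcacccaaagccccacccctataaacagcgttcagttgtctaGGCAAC
Ccdc89 (chr7:90426062-90426311, plus strand): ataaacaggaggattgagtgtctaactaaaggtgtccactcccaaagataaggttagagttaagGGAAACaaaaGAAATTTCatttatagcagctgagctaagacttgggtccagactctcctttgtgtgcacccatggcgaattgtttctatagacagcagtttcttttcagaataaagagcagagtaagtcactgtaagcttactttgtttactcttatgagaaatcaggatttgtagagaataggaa
Ccdc34 (chr2:110017567-110017816, plus strand): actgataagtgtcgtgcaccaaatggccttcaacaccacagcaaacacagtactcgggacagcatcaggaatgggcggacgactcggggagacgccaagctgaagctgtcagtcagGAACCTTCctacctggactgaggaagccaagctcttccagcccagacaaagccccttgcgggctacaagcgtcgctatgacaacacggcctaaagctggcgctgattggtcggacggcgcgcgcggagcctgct
Ccdc115 (chr1:34439673-34439922, minus strand): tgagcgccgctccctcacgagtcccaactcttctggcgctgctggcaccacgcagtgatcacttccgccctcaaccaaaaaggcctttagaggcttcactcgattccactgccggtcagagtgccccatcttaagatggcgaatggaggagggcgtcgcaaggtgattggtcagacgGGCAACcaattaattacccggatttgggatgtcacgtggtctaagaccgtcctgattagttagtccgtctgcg
The RFX core lay in 45% of the 20 flagellar windows, 38.2% of the 34 ubiquitous windows and 39.4% of all 32851 windows. Members that fell held this core in 49.02% of 51 windows, and tested members not called in 34.85% of 66. GAANNTTC lay in 3 flagellar windows (15%), those of Ccdc34, Ccdc89 and Ccdc188, in 11.8% of ubiquitous windows and in 6.69% of all windows. Members that fell held it in 2 of 51 windows (3.92%), both printed above, and tested members not called in 7.58% of 66. CAGTT, the core of MYB sites, is not capitalised and can share the letters GTT with the RFX core. It lay in 30% of flagellar, 23.5% of ubiquitous and 39.1% of all windows, again on both strands. For members that fell the share was 27.45%, and for tested members not called 31.82%. The median GC content was 52.4% in flagellar and 58.8% in ubiquitous windows, with medians of 9 and 16 CpG pairs. Over all windows the medians were 52.4% and 6 pairs. Windows of members that fell had medians of 55.6% and 13 pairs, and those of tested members not called 59.4% and 13 pairs. A match describes letters only.

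The comparison asked which Ccdc transcripts differ in testes without Hsf5. A mean value of at least 10 was reached by 118 members, and 46 of these fell while 1 rose (limma, Benjamini-Hochberg adjusted p under 0.05 over 17480 genes). Over all tested genes 13.5% fell and 3.28% rose, and over protein-coding genes 13.7% fell and 3.74% rose. Falls made up 39.0% of tested members, 31 of them at least 2-fold and 12 at least 8-fold by the fitted value, against 1175 and 381 of the 2366 falls over all genes. The median log2 fold change, on the log2(value + 1) scale used throughout, was -0.32 over the members and 0.01 over all tested genes. Both knockouts lay below both controls in 64 members, against 31.9% of all tested genes, and above both in 20, against 29.8%. Of the tested members, 8 had a knockout mean under 10 and passed the filter through their control values, as did 654 of all tested genes. These members include Ccdc7b, Ccdc178, Ccdc7a, Ccdc83 and Ccdc110, which are among the falls of at least 8-fold. The count of such falls thus depends in part on the filter. The authors' deposited table gives 44 members lower and 1 higher by its own adjusted p, against 11.3% and 2.26% of its genes, and 43 of those falls were also called by limma.

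The number of calls depended on the variance model, the filter and the libraries used. Each fit without 1 library has 1 library in that group, so its p-values rest on the spread of the other group. A call kept or lost in such a fit cannot show whether a change stands out from the spread within the reduced group. Without limma's mean-variance trend 0 of 118 members passed (lowest adjusted p 0.0717), although 49 were lower and 6 higher at an unadjusted p under 0.05, and 40 of all genes were called. With no filter on low values 18 members fell. The count of falls was 31 without control 2, 30 without knockout 1 and 28 without knockout 3. Scaling also moved the balance of calls over all genes, from 2366 falls and 573 rises to 2006 and 1513 when scaled to total reads and to 3904 and 81 when scaled to Sertoli cell markers.

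**Figure D1:**
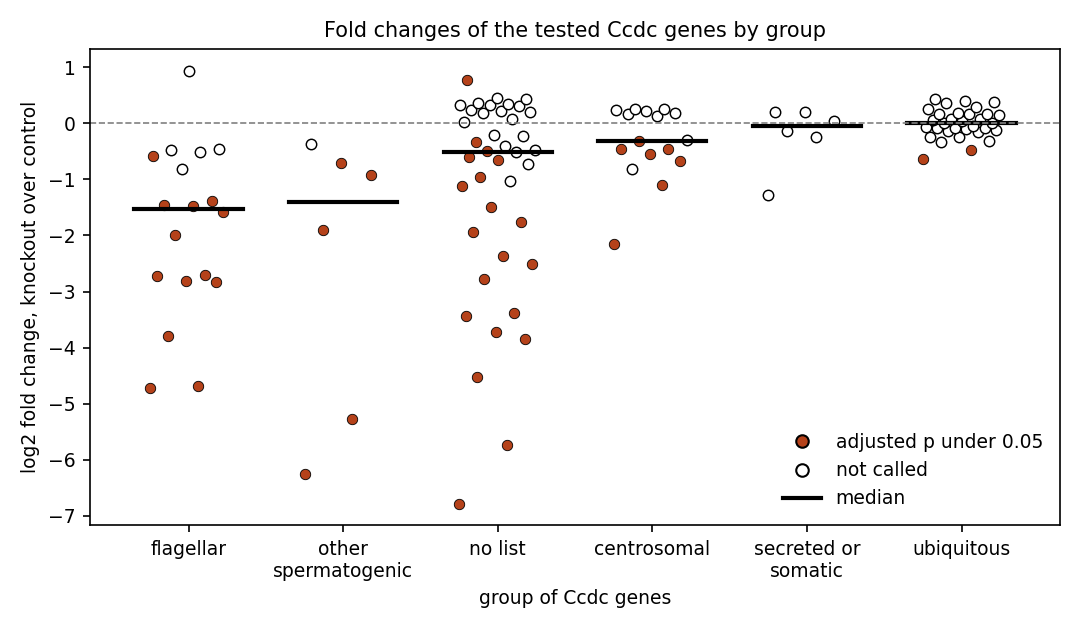
Log2 fold change of knockout over control for the 118 tested Ccdc genes (vertical axis), split by the group each was placed in (horizontal axis). Filled points passed an adjusted p under 0.05, open points did not, and bars are medians, -1.53 in the flagellar and 0.01 in the ubiquitous group.

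The flagellar and the ubiquitous members stood far apart. Among flagellar members 13 of 18 tested fell and 0 rose by limma (at an unadjusted p under 0.05, 14 were lower and 0 higher), with a median log2 fold change of -1.53. Among ubiquitous members 2 of 32 fell and 0 rose by limma (unadjusted, 5 and 3), with a median of 0.01. Falls made up 72.2% of tested flagellar and 6.25% of ubiquitous members, against 13.5% of all tested genes. Rises made up 3.28% of all tested genes, so 0 among so few members says little. The authors' deposited table gives 13 flagellar and 2 ubiquitous falls and no rise in either. The level of the flagellar group over the ubiquitous group, each gene centred on its mean over the libraries, was 0.52 and 1.11 in the controls and -0.66 and -0.84 in the knockouts on the log2 scale. The knockouts thus lay together below the controls, with control 2 the farthest away. The difference between the medians of log2 fold change was -1.53, or -1.86 without control 1 and -1.23 without control 2. It describes genes placed by known function, with earlier results of these data known, and carries no test.

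**Figure D2:**
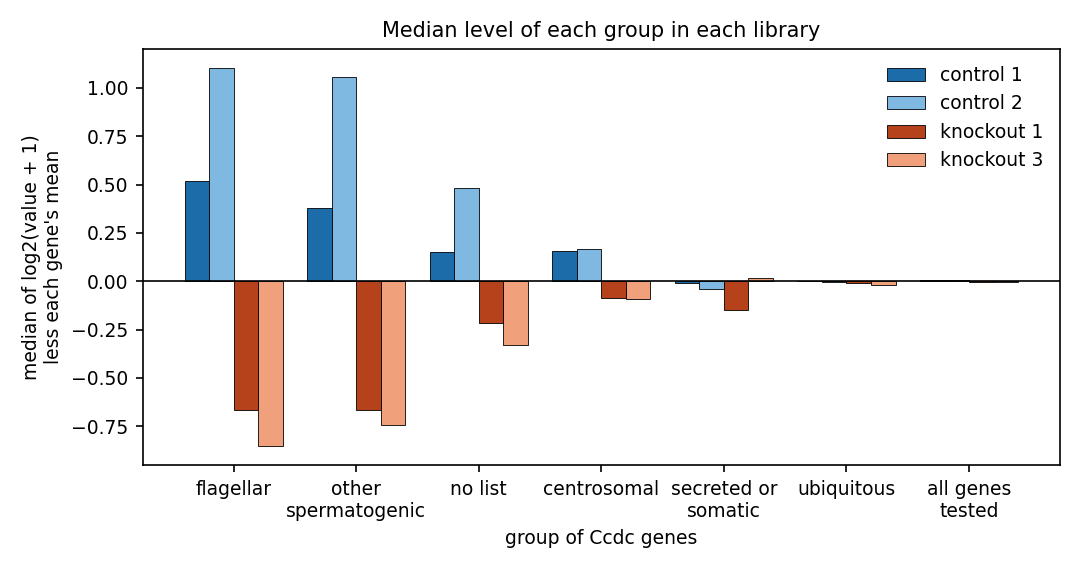
Median of log2(value + 1), less each gene's mean over the 4 libraries, for each group of Ccdc genes and for all tested genes (bars start at 0, 1 bar per library). The flagellar bars run from 1.10 in control 2 to -0.85 in knockout 3, while the ubiquitous bars stay within 0.02 of 0.

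The 2 largest flagellar falls were those of partner genes of the manchette. Ccdc42 (chromosome 11), needed to build the sperm tail, had normalised read counts of 218 and 422 in the controls and 10.02 and 11.3 in the knockouts. Its mean of 320.3 ± 144 in the controls and 10.6 ± 0.881 in the knockouts (SD, n = 2) gave a log2 fold change of -4.71 (SE 0.36, limma adjusted p = 0.000185). The knockouts lay close together, far under the lower control. Ccdc38 (chromosome 10), which binds Ccdc42, stood at 443 and 1824 in the controls and 42.1 and 27.7 in the knockouts (-4.68, SE 0.55, limma adjusted p = 0.000931). Control 2 was far above control 1 for this gene, and its log2 fold change was -5.70 without control 1 and -3.66 without control 2. Ccdc181 (chromosome 1), which binds the manchette protein HOOK1, had much higher levels of 1724 and 2724 against 837 and 734 and a log2 fold change of -1.47. Ccdc146 (chromosome 5), a microtubule-associated protein of the sperm tail, had 323 and 538 against 66.1 and 50.2 (-2.83).

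Axonemal members fell as well. Ccdc113 (chromosome 8) and Ccdc96 (chromosome 5) encode proteins that bind each other in the axoneme. Ccdc113 stood at 545 and 1089 in the controls and 130.3 and 90.1 in the knockouts, a log2 fold change of -2.82 (SE 0.31, limma adjusted p = 0.000761). Ccdc96 stood at 722 and 1231 in the controls and 362 and 359 in the knockouts, a log2 fold change of -1.39 (SE 0.22, limma adjusted p = 0.00352). The binding partners kept 13.5% and 36.9% of their control means. Ccdc105 (chromosome 10), a tektin-like protein inside axonemal microtubules, had low values of 51.4, 98.2, 7.02 and 14.3 (-2.70). Ccdc173 (chromosome 2), another microtubule inner protein, had 393, 544, 170.4 and 139 (-1.58). Ccdc189 (chromosome 7), needed for a normal flagellum, had 247, 426, 113 and 119.9 (-1.47). The groups did not overlap in any of these genes. Ccdc189 shares 25.6% of its exonic bases with Phkg2 on the opposite strand in the GENCODE annotation, and the counting's strand setting is unknown here, so reads in the shared stretch cannot be assigned to either gene.

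Ccdc89, Ccdc180, Ccdc87 and Ccdc34 completed the flagellar falls. Ccdc89 (chromosome 7) had 445 and 719 in the controls and 43.1 and 36.9 in the knockouts, a log2 fold change of -3.79 (SE 0.25, limma adjusted p = 0.000109). Ccdc180 (chromosome 4) had 379 and 641 against 84.2 and 64.5 (-2.72). Ccdc87 (chromosome 19), a sperm protein with a part in the acrosome reaction, had 262 and 522 against 119 and 71.7 (-1.99). Ccdc34 (chromosome 2), a centrosomal and tail protein also expressed outside the testis, had 1563 and 1504 against 1082 and 975, which left 67.1% of the control mean (-0.58). It was the 1 flagellar fall of 13 in which control 2 did not exceed control 1. The calls of Ccdc87 and Ccdc34 were lost without knockout 3 (limma adjusted p = 0.0540 and 0.0582), and the other 11 held whichever library was left out.

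The remaining flagellar members were not called. Ccdc172 (chromosome 19), a tektin-binding protein of the sperm midpiece, had 502 and 627 in the controls and 402 and 403 in the knockouts and just missed the threshold (limma adjusted p = 0.0503). Ccdc103 (chromosome 11), a dynein arm factor, had 164, 194, 172 and 97.3 with overlapping groups. Ccdc63 (chromosome 5), a docking protein of outer dynein arms in sperm, had 55.3, 48.6, 49.1 and 26.6, also with overlap. Ccdc159 had 25.2, 20.8, 13.03 and 12.3, lower in both knockouts (log2 fold change -0.81, limma adjusted p = 0.262). Ccdc183 (chromosome 2) went the other way on few reads, with 10.7, 12.9, 22.05 and 24.6 (0.93, limma adjusted p = 0.204). Ccdc153 and Ccdc188 were below the filter, with at most 3.07 in any library.

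**Figure D3:**
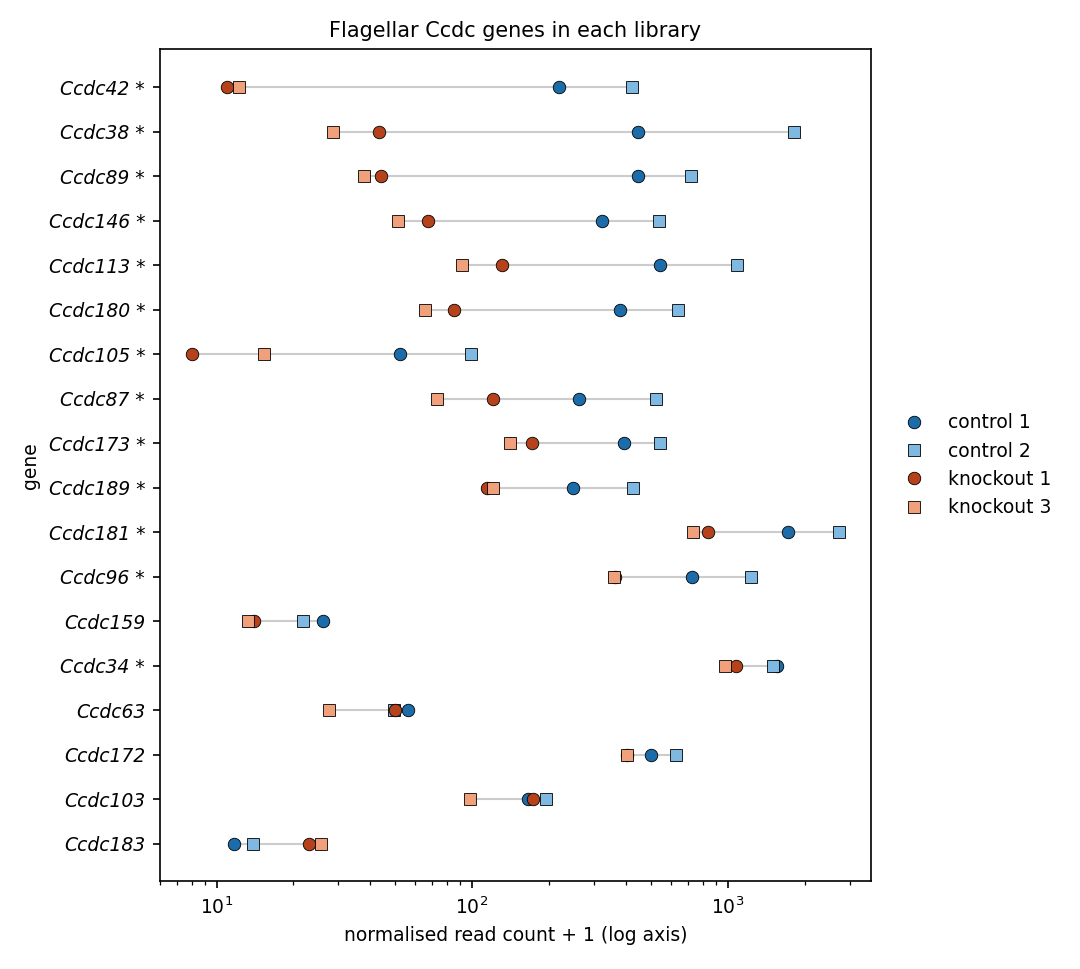
Normalised read count + 1 (horizontal, log axis) of the 18 tested flagellar Ccdc genes in each of the 4 libraries (1 point per library, asterisks mark an adjusted p under 0.05). In the 13 marked genes both knockouts lie left of both controls, and control 2 lies right of control 1 in 12 of them.

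The ubiquitous members stayed near their control levels. Ccdc6 (chromosome 10), known as a partner in oncogenic fusions, had 1582 and 1454 in the controls and 1795 and 1893 in the knockouts (log2 fold change 0.28, limma adjusted p = 0.0617). Ccdc186 (chromosome 19), a gene of dense-core vesicle formation, had 1505, 1463, 1451 and 1610 (0.04). Ccdc115 (chromosome 1), an assembly factor of the vacuolar proton pump, had 1418, 1437, 1530 and 1424 (0.05). Uncalled ubiquitous members lay on both sides of 0, 13 below and 17 above, and the groups overlapped in 14 of the 32. Over all 17480 tested genes, 6082 uncalled genes lay below 0 and 8459 above, and the groups overlapped in 6701. The log2 fold changes of all 32 ran from -0.64 to 0.43, against -4.71 to 0.93 in the flagellar group.

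The 2 ubiquitous falls were modest. Ccdc117 (chromosome 11) had 3556 and 3893 in the controls and 2745 and 2616 in the knockouts, a log2 fold change of -0.47 (SE 0.08, limma adjusted p = 0.00466). Ccdc130 (chromosome 8), a spliceosome-associated protein, had 344 and 464 against 266 and 247 (-0.64, SE 0.17, limma adjusted p = 0.0376). Ccdc117 lost its call without knockout 3 (adjusted p = 0.0590), and Ccdc130 without every library other than control 1 (adjusted p = 0.121 to 0.235). The highest fitted value was that of Ccdc107, at 346, 353, 489 and 453, which missed the threshold (0.43, limma adjusted p = 0.0518). Scaling to Sertoli cell markers moved the median of all genes to -0.19 and that of the ubiquitous members to -0.20, with 5 falls. Scaling to total reads moved both to 0.12, with 3 ubiquitous rises. The flagellar median was then -1.73 and -1.42. A change of scale shifts every gene by nearly the same amount, so it cannot test the difference between the groups.

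**Figure D4:**
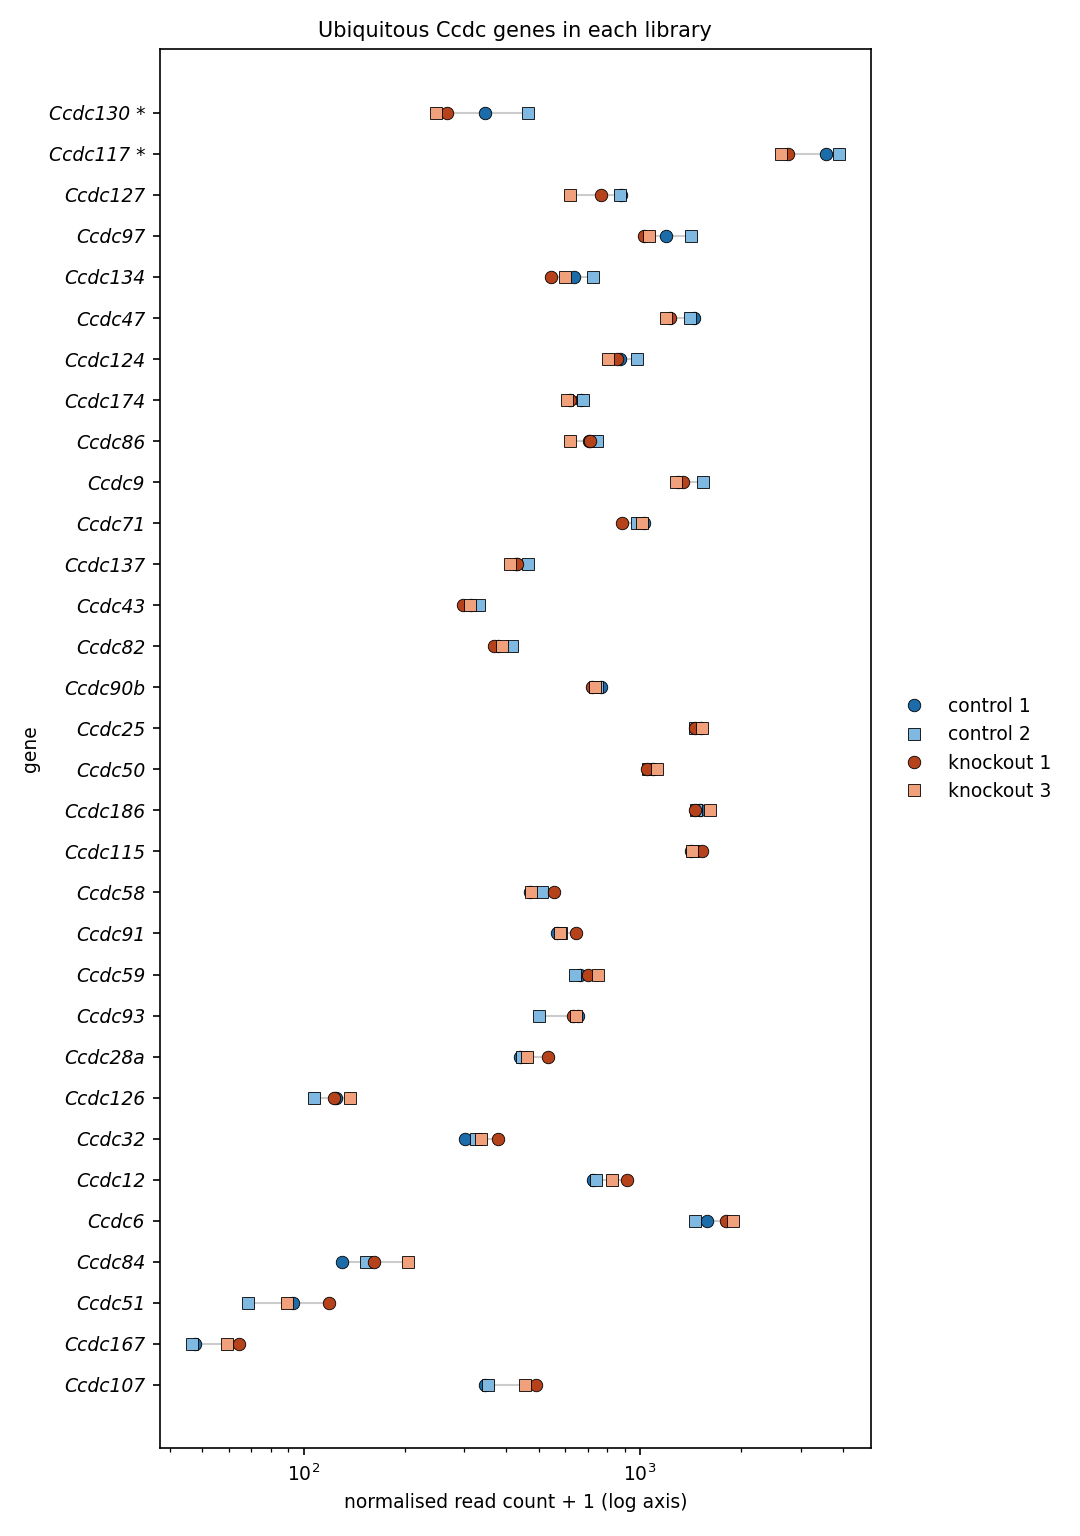
Normalised read count + 1 (horizontal, log axis) of the 32 ubiquitous Ccdc genes in each of the 4 libraries (1 point per library, asterisks mark an adjusted p under 0.05). Ccdc117 and Ccdc130 carry the asterisks, and in 14 genes the control and knockout points overlap.

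Centrosomal members, which serve centrioles, centriolar satellites or the base of the cilium, were split. Falls made up 43.75% of those tested, against 13.5% of all tested genes. Of 16 tested, 7 fell and 0 rose by limma (0 higher at an unadjusted p under 0.05, and 5 lower and 0 higher in the authors' deposited table, where Ccdc14 and Ccdc61 have adjusted p of 0.0736 and 0.0835), with a median of -0.31. Ccdc13 (chromosome 9), a centriolar satellite protein, had 659 and 1239 in the controls and 211 and 194 in the knockouts, a log2 fold change of -2.15 (SE 0.26, limma adjusted p = 0.000969). Ccdc92 (chromosome 5), at the interface of centriole and cilium, had 2824 and 3826 against 1639 and 1423 (-1.11). These 2 held their call whichever library was left out. The falls of Ccdc66 (-0.67), a satellite protein of primary cilium formation, Ccdc77 (-0.55), Ccdc112 (-0.46), Ccdc14 (-0.46) and Ccdc61 (-0.32) were smaller. Ccdc66 lost its call without knockout 1 (limma adjusted p = 0.0580), Ccdc77 held only without control 1, and Ccdc112, Ccdc14 and Ccdc61 lost theirs whichever library was left out. Ccdc66 also shares 39.1% of its exonic bases with Fam208a on the opposite strand, which has a mean value of 1506. Ccdc18 was not called at 685, 910.3, 907 and 824. The library medians of this group were 0.16 and 0.17 in the controls and -0.09 and -0.09 in the knockouts, nearly equal within each genotype.

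Spermatogenic members outside the tail included steep falls on few knockout reads, and 5 of 6 tested fell (83.3%, against 13.5% of all tested genes). Ccdc83 (chromosome 7) had 93.1 and 308 in the controls and 4.01 and 0 in the knockouts (-6.25, limma adjusted p = 0.00155). Ccdc110 (chromosome 8), a cancer-testis antigen, had 86.3 and 362 against 2.004 and 6.15 (-5.26). Both held their call whichever library was left out, but the log2 fold change ranged from -7.41 to -5.09 for Ccdc83 and from -6.29 to -4.24 for Ccdc110. Ccdc136 (chromosome 6), needed for acrosome formation, had the highest values of the group, 4520 and 7341 in the controls and 1618 and 1475 in the knockouts, and a log2 fold change of -1.90 (SE 0.19, limma adjusted p = 0.000527). Ccdc62, also of acrosome formation, had 644 and 1056 against 438 and 432 (-0.92). Ccdc73 had 586 and 765 against 433 and 387 (-0.71). Ccdc62 lost its call without either knockout (limma adjusted p = 0.0809 and 0.113), and Ccdc73 without control 2 or either knockout. Ccdc157 was not called at 1332, 1646, 1188 and 1108 (adjusted p = 0.0644), and Ccdc33 was below the filter.

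Members with no placement included genes with almost no knockout reads. Ccdc7b (chromosome 8) had 31.03 and 377 in the controls and no read in either knockout. Set against a floor of 3 reads over the knockout group, its level was at least 133-fold under the mean of both controls. That bound covers the counting of knockout reads only, not the spread between the controls. Ccdc7a, a related copy on the same chromosome, had 24.2 and 171 against 3.01 and 1.02, and reads that fit both copies cannot be assigned with certainty. Ccdc178 (chromosome 18) had 294 control reads and 2 knockout reads, a ratio of 142 (exact 95% binomial interval 39.03 to 1180, counting error only). Control 2 held most of the control reads of these 3 genes, and their log2 fold changes depend on it. Without control 1 and without control 2 they were -8.56 and -5.00 for Ccdc7b and -7.22 and -4.24 for Ccdc178, which also moved to -4.92 and -6.53 without knockouts 1 and 3. Ccdc7a moved from -4.53 to -5.91 without control 1, was below the filter without control 2, and lost its call without knockout 3 (limma adjusted p = 0.0725).

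Other unplaced members fell at higher read counts. In all, 19 of 40 tested unplaced members fell (47.5%, against 13.5% of all tested genes), with a median of -0.51 over the tested genes. Of these falls 7 were at least 8-fold, among them Ccdc7b, Ccdc178 and Ccdc7a with almost no knockout reads. Ccdc60 (chromosome 5) had 1414 and 2834 in the controls and 348 and 244 in the knockouts, a log2 fold change of -2.78 (SE 0.29, limma adjusted p = 0.000647). Ccdc175 (chromosome 12) had 189 and 388 against 24.1 and 13.3 (-3.84). Ccdc30 (chromosome 4) had 449.9 and 1383 against 82.2 and 63.5 (-3.43), or -4.24 without control 1 and -2.62 without control 2. The controls of Ccdc30 were far apart, while those of Ccdc60 and Ccdc175 were closer. Ccdc144b (chromosome 3) had 118 and 238 against 22.05 and 6.15 (-3.72), or -4.56 without knockout 1 and -2.87 without knockout 3. Ccdc88c, a regulator of Wnt signalling, had 2405 and 2619 against 1837 and 2132, and this small fall (-0.34) lost its call whichever library was left out. Ccdc85c was not called at 1014, 1210, 1174 and 1086.

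**Figure D5:**
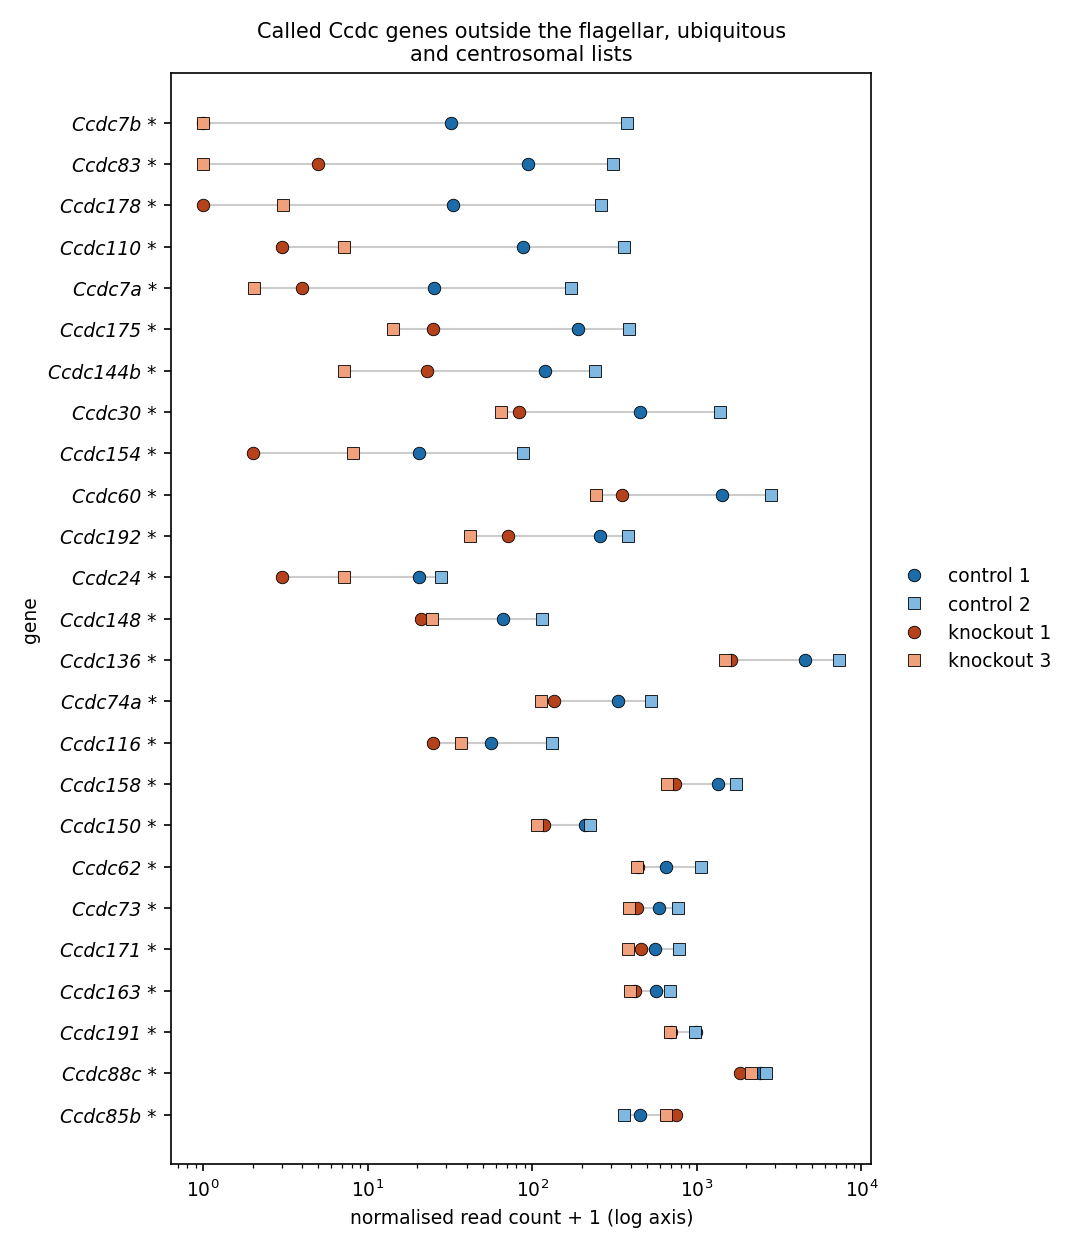
Normalised read count + 1 (horizontal, log axis) of the called Ccdc genes with no placement or in the other spermatogenic group, in each of the 4 libraries (1 point per library). Ccdc7b sits at a value of 0 in both knockouts, and Ccdc85b is the 1 gene with both knockouts right of both controls.

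The member that rose was Ccdc85b (chromosome 19), which binds catenins at cell junctions, and with scaling to total reads 6 members rose. It had 453 and 361 in the controls and 745 and 645 in the knockouts, with means of 407 ± 64.9 and 695 ± 70.2 (SD, n = 2). The log2 fold change was 0.78 (SE 0.15, limma adjusted p = 0.00837), and the groups did not overlap. The call was lost without knockout 1 (limma adjusted p = 0.0813). Summed Sertoli cell markers were also higher in both knockouts, and their part in this rise was not tested. The 6 secreted and somatic members had no call by limma (2 were lower and 0 higher at an unadjusted p under 0.05). The matrix gene Ccdc80 had 269.5, 261, 208 and 277, Ccdc8 had 487, 469, 479 and 626, and Ccdc88a, an actin-binding signalling protein, had 1640, 1914, 1472 and 1523. Ccdc88b had 79.5, 226, 72.2 and 40.98 and a limma adjusted p of 0.107, while the authors' deposited table calls it lower (log2 fold change -1.43, adjusted p 0.0339).

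Genes that work with Ccdc proteins were read from partner lists. Of 32 genes once named Ccdc and since renamed, 22 were tested under the newer name, and 14 of these fell, with a median of -0.67. The largest of these falls were in the tail genes Cfap58 (-3.59), Cfap65 (-3.02), Cfap53 (-2.91) and Cfap45 (-2.86). Cfap65 had 1480 and 2553 in the controls and 238 and 239 in the knockouts. Of 22 tested axonemal, transport and tail partners 18 fell, with a median of -2.39. They included the tektins Tekt3 (-6.70) and Tekt5 (-4.14), which line axonemal microtubules, the outer arm dynein Dnah17 (-6.29) and its docking factor Odad2 (-4.87). The 23 tested partners of ubiquitous members came from the endosomal COMMD complex, the translocon, the spliceosome and the exon junction complex. Of these, 4 fell (17.4%, against 13.5% of all tested genes), with a median of -0.01. Those 4 were Dennd10 (-0.62), Sf3b2 (-0.42), Nomo1 (-0.36) and Sf3b1 (-0.27).

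The controls also differed from each other, and by more in some groups. Control 2 exceeded control 1 by a median of 0.71 on the log2 scale in flagellar, 0.71 in other spermatogenic, 0.35 in unplaced, 0.08 in centrosomal and 0.02 in ubiquitous members. Knockout 3 less knockout 1 had a median of -0.20 in flagellar and -0.05 in ubiquitous members. Of the 46 members that fell, 43 were higher in control 2 than in control 1, as were 2185 of the 2366 falls over all genes. The summed pachytene markers were likewise higher in control 2 and lower in knockout 3 within their groups. The Leydig cell markers moved the same way within groups, with a median of 0.53 for control 2 over control 1 and -0.50 for knockout 3 over knockout 1, against 0.53 and -0.36 for pachytene markers. The part of either in these differences was not tested. Without control 2, the library farthest from the knockouts, the log2 fold changes of the 13 flagellar falls ran from -4.24 (Ccdc42) to -0.60 (Ccdc34). That fit has 1 control, so it does not measure the spread between the controls. It cannot show whether the falls stand out from that spread.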

How the data were processed

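Testis RNA sequencing was analysed from the deposited table of the series. Its signal values are, per the file headers and from the values, reads per gene normalised by a size factor: all values were whole multiples of the smallest in their library within 1e-06, which was taken as 1 read. The authors' deposited table also holds log2 fold changes, a score (the test statistic) and p-values with their adjustment. The tools listed in the submitters' processing notes are cutadapt, Bowtie2, featureCounts and DESeq2, with build mm39. Their versions, settings and strand option are not given in the sources used. The limma package (3.58.1, R 4.3.3) was fitted to log2(value + 1) with its mean-variance trend on the 17480 genes averaging at least 10, which left 2 residual and 6.3 prior degrees of freedom. This scale understates the change of low genes. Calls took a Benjamini-Hochberg adjusted p under 0.05 over all tested genes. The fit was also run on simulated counts with the same scatter for every gene and independent libraries. These lack the shared difference between the controls, so they cannot test the calls made here.

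Members and lists were chosen with earlier results of these data known. Named were every tested flagellar member, in each other group the 6 called members with the largest change and the 3 with the highest mean, every member called higher, and every member with no knockout read and at least 20 control reads. The 4 called genes with the largest change were named from each partner list. Ccdc107, Ccdc115, Ccdc33, Ccdc88b and the marker genes were named after their values were seen. In the GENCODE annotation of GRCm38, 28 members share exonic bases with a gene of mean at least 10, and 10 of them were called. Alternatives were pseudocounts of 0.5 and 5, other filters, scalings and variance models, and leaving out each library. Leaving out a library left 1 in its group, so the spread within that group was not measured.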

Additional observations from a re-analysis of the deposited data

How the results depend on the processing

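The flagellar median and its difference from the ubiquitous median were negative under every alternative run, of which the scalings cannot move the difference, and it lay between -1.86 and -1.23. With no filter on low values 815 genes were called lower and 37 higher (median 0.0119), and 18 Ccdc members, 8 flagellar members and 0 ubiquitous members were lower, with 0 members higher. With no mean-variance trend 40 genes were lower and 0 higher, and 0 Ccdc members were called. The cause was not tested. Scaled to Sertoli cell markers, 3904 genes were lower and 81 higher (median -0.19), the Ccdc median was -0.53, 5 ubiquitous members were lower and the ubiquitous median was -0.20. Scaled to total reads, 1513 genes were higher (median 0.12), the Ccdc median was -0.21, 6 members were higher, 3 of them ubiquitous, and the ubiquitous median was 0.12. With trimmed mean of M values factors the median of all genes was 0.0313 and of ubiquitous members 0.0242, and 2 members were higher, 1 of them ubiquitous, as with a minimum mean of 50 (2 and 1). Leaving out each library gave 1086 to 2054 genes lower and 71 to 308 higher (median 0.00351 to 0.0089), 28 to 43 Ccdc members lower and 0 to 1 higher (median -0.35 to -0.25), 11 to 14 flagellar members lower (median -1.84 to -1.24) and 0 to 3 ubiquitous members lower (median -0.0305 to 0.0191). Of the 47 called members, 25 held whichever library was left out. No paired analysis was possible because the value columns of the groups share fewer than 2 replicate numbers. The planned count-based fits over all genes were not run, since the table was handled as normalised values. Recovered reads did enter the fold of Ccdc7b and the interval of Ccdc178. Depth limits members near the filter, such as Ccdc183 and Ccdc159.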
